A study of Mus musculus with 26 samples.

Results

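The genes of fatty acid and triglyceride synthesis were followed through the livers of 26 C57BL/6 mice given benoxacor, a herbicide safener that is mixed with herbicides to protect the crop. The set held 31 genes, chosen by name for their roles in the pathway, of the 54532 genes in the deposited count table, and all 31 were found. Mice were gavaged on 3 consecutive days at 0 mg/kg (5 mice), 0.5 mg/kg (5 mice), 5 mg/kg (8 mice) or 50 mg/kg (8 mice), and the livers were collected 24 hours after the last gavage. All groups were of the same strain, had been acclimatised from 4-8 weeks with their bedding mixed to even out the gut microbiome, and were gavaged alike. The mice at 0 mg/kg served as controls, the labels name neither vehicle nor sex, and 1 library was made per liver.

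The liver makes fatty acids from acetyl-CoA that leaves the mitochondrion as citrate: ATP citrate lyase (Acly) frees the acetyl unit, acetyl-CoA carboxylase (Acaca) turns it into malonyl-CoA, and fatty acid synthase (Fasn) joins these units into palmitate. Elongases (Elovl genes) and desaturases (Scd and Fads genes) then lengthen the chain and place double bonds, and a series of acyltransferases with the phosphatase lipin 1 (Lpin1) builds the chains into triglyceride. Transcription of the pathway is driven after meals by SREBP-1c, the product of Srebf1, in response to insulin, and by ChREBP, the product of Mlxipl, in response to glucose, while Insig2 encodes a protein of the endoplasmic reticulum that holds back SREBP processing.

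Libraries held 5433074 to 9088626 counted reads, with a median of 7105531, and levels are given below as CPM (counts per 1e6 reads) scaled by the trimmed mean of M values. The members together took 0.535 to 1.5% of the counts of a mouse. The hepatocyte transcript Alb stood at 33690 CPM or more in every mouse. The animals' numbers fall into a run from 601 to 616 (15 mice, of which 4, 3, 4 and 4 at the rising doses) and another from 619 to 632 (11 mice, of which 1, 2, 4 and 4), for whose separation no reason is given. Within each run the numbers rise with the dose, so dose and number order cannot be told apart there. At 5 mg/kg, replicates 6 and 8, both of the run from 619, carried transcripts of adipocytes, and replicate 8 also carried those of adrenal cortex and exocrine pancreas. The adipocyte hormone gene Adipoq stood at 42.2 CPM in replicate 6 and 97.8 CPM in replicate 8, against at most 1.74 CPM in the other 24 mice. Leptin (Lep) was at 0 in those 24 mice and at 0.866 and 4.05 CPM in these mice. The adrenal enzyme gene Cyp11a1 was at 473 CPM in replicate 8 and at 0 in the 25 others, as were the pancreatic enzyme genes Pnlip and Prss2, at 16.8 and 10.2 CPM in replicate 8. A further pancreatic marker, Amy2a5, was at 0 in every mouse. The summed level of 6 stellate cell markers, collagen genes among them, was 168 CPM in replicate 8 and at most 115.5 CPM in the 24 mice. In replicate 8 Col1a1, Col1a2, Acta2 and Des were above all of those 24 mice, while Lrat and Reln were within their range. Results that rest on replicates 6 and 8 are given with and without them where both were computed.

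RefSeq windows (GRCm38.p6) of the sequence before the transcription start were read for 26 of the 31 members, which have 36 annotated starts. The windows of the fatty acid synthase gene, of Srebf1's closest companion Mid1ip1, of Insig2 and of the regulator gene Mlxipl are shown. These genes were picked for their variation between mice, described below, and a relation of motifs to levels was not tested. Each window runs over the 250 bases before the start, 5′ to 3′ on the gene's strand. Capitals mark letters that match a searched motif on either strand.

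Fasn, chr11:120824548-120824797, minus strand: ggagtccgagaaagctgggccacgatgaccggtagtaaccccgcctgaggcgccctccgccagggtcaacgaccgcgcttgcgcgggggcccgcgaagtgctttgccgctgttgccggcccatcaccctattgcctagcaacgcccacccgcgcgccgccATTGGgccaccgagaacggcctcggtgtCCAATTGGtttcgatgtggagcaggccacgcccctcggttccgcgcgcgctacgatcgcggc
Mid1ip1, chrX:10717115-10717364, plus strand: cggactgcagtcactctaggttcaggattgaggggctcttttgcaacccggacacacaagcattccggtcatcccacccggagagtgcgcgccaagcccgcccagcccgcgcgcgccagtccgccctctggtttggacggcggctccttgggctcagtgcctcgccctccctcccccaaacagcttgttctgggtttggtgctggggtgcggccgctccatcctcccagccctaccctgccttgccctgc
Insig2, chr1:121332590-121332839, minus strand: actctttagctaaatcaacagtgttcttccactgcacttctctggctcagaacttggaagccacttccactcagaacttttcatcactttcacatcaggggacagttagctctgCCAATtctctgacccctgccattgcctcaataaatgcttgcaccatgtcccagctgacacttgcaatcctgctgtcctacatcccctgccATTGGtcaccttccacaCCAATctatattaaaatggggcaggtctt
Mlxipl, chr5:135089640-135089889, plus strand: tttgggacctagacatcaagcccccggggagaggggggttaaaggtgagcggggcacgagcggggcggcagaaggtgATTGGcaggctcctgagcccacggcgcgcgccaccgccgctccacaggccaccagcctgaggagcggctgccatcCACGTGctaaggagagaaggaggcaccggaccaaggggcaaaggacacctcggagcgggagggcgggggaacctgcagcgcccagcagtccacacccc

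The motifs searched were the E-box CACGTG, the sterol element TCACNCCAC, the CCAAT box, whose letters are its name, and the nuclear receptor element AGGTCA, each on both strands over windows of 250 bases before to 50 bases after the start. The window of Fasn held 3 CCAAT matches, of which 1 pair on opposite strands shares letters, and the first of Insig2's 3 windows also held 3. The window of Mlxipl shown held 1 E-box and 1 CCAAT match, and that of Mid1ip1 held no match. The CCAAT box occurred in 18 of the 36 member windows (50.0%), against 37.4% of all 32851 windows of the same length. An E-box was found in 3 member windows, those of Elovl5, Mlxipl and Slc25a1 (8.33% against 7.15%). The sterol element occurred in 1, at the other annotated start of Mlxipl (2.78% against 1.24%), and AGGTCA in 7 (19.4% against 16.3%).

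The members spanned a wide range of abundance. Scaled to the exonic length of each gene, the most abundant was Scd1, the stearoyl-CoA desaturase that makes oleate, with a median of 468 CPM per kb over the 26 mice. Thrsp, the lipogenic Spot 14 protein, followed at 184, then Mlxipl at 133, the elongase of polyunsaturated chains Elovl2 at 124 and Dgat2, which adds the last acyl chain of triglyceride, at 111 CPM per kb. Fasn stood at 40.9 and Acaca at 6.35 CPM per kb. The lowest were Scd2 and the lipid droplet protein gene Pnpla3, at 0.941 and 0.731 CPM per kb, and Pnpla3 was the only member with a mouse at 0 counts. The spread between mice also differed between members: the coefficient of variation was 16.7% for Elovl1 and 19.0% for Elovl2, but 67.4% for Fasn, 71.0% for the acetoacetyl-CoA synthetase gene Aacs and 230% for Scd2.

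The first comparisons asked whether any dose of benoxacor moved the pathway. No member passed the test for a change with dose. With edgeR's quasi-likelihood test and Benjamini-Hochberg adjustment over 14415 genes, 0 of 31 members passed an adjusted p of 0.05 at 50 against 0 mg/kg, where 0.00694% of all genes passed, and at 5 against 0, 0.5 against 0 and 50 against 5 mg/kg, where 0% passed. The same held for the mean of the 3 dosed groups against the controls (0.00694% of all genes) and for a trend over the rank of the dose (0.0139%). Members with an unadjusted p under 0.05 numbered 1 at 50 against 0 mg/kg, where 5.11% of all genes had such a p, 1 at 5 against 0 (6.18%), 2 at 0.5 against 0 (6.99%), 5 at 50 against 5 mg/kg (4.85%), 1 for any dose (6.99%) and 2 for the trend (4.26%). DESeq2's Wald test and limma-voom also called 0 members in these 6 comparisons. Each of the 3 doses was set against the same 5 controls, so these comparisons are not independent.

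The median differences over the members were small. The median log2 fold change of the 31 members was 0.04 at 50 against 0 mg/kg, where the median of all genes was 0.01, and 0.20 at 5 against 0 (all genes 0.01) and 0.02 at 0.5 against 0 (all genes 0.00). At 50 against 5 mg/kg it was -0.12 (all genes 0.00). At 50 against 0 mg/kg the median ran from -0.05 without replicate 1 at 50 mg/kg to 0.17 without replicate 3 at 0 mg/kg. Of the 31 members 24 had a positive log2 fold change at 5 mg/kg, where 51.9% of all genes had one, and 17 at 50 mg/kg, where 51.1% had one. The precision was enough to bound many members: at 50 against 0 mg/kg the 95% interval of the log2 fold change lay within -1 to 1 for 23 of the 31 members and within a 1.5-fold change in either direction for 14. The plot of fold changes by member shows these intervals.

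**Figure D1:**
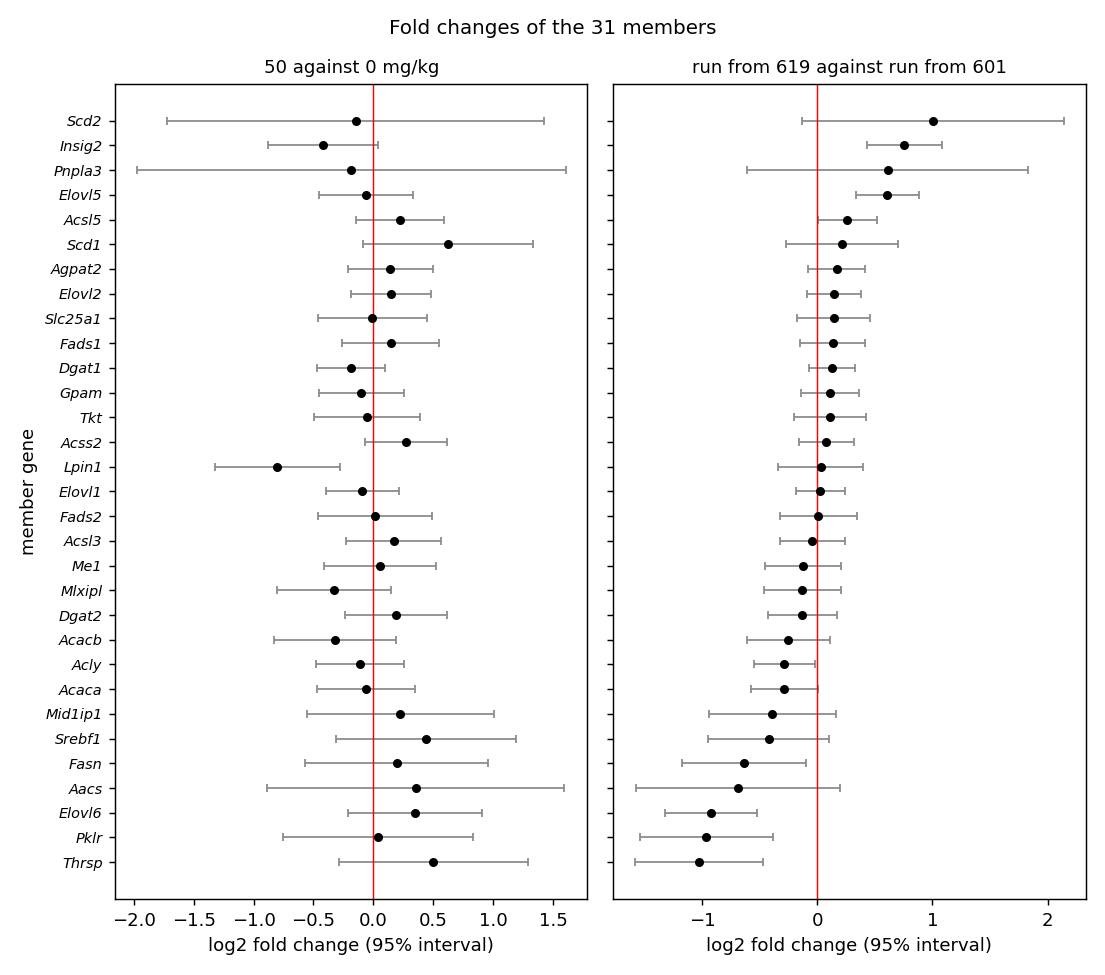
Log2 fold change of each of the 31 members with its 95% interval (horizontal axis) at 50 against 0 mg/kg (left) and in the run from 619 against the run from 601 (right), from the edgeR fit over 26 mice. Members are ordered by their difference between the runs. On the left Lpin1 lies lowest at -0.80, and on the right Thrsp lies lowest at -1.03.

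Among the regulators, Srebf1 averaged 297 ± 44.6 CPM (SD, n = 5) in the controls, 250 ± 91.1 (n = 5) at 0.5, 334 ± 146 (n = 8) at 5 and 364 ± 263 (n = 8) at 50 mg/kg. Its dose rank trend was 0.18 per step on the log2 scale (SE 0.11), with an edgeR adjusted p of 1.0. At 50 mg/kg 1 mouse stood at 937 CPM, where the median of the group was 266 CPM, and without that mouse the trend was 0.06. By limma-voom it was 0.09. Mlxipl averaged 915 ± 207 CPM (SD, n as above) in the controls and 668 ± 128, 692 ± 182 and 710 ± 243 CPM at the rising doses. All 4 groups of either regulator overlapped. Mlxipl was below every control in 3 of 5, 3 of 8 and 4 of 8 dosed mice, and above every control in none of the 21. Its log2 fold change was -0.44 at 0.5 mg/kg (SE 0.25, edgeR adjusted p = 0.769) and -0.38 over all doses (SE 0.20, adjusted p = 0.743). The Mlxipl value at 0.5 mg/kg was -0.28 in the run from 601 alone and -0.84 in the run from 619 alone, which has 1 control. Insig2 stood at 171 ± 51.2, 238 ± 57.7, 196 ± 91.6 and 151 ± 58.8 CPM at the rising doses, also with overlap. Its log2 fold change was -0.42 at 50 mg/kg (SE 0.22, edgeR adjusted p = 0.979), and its trend was -0.20 per step (SE 0.08, adjusted p = 1.0). The Insig2 value at 50 mg/kg was -0.27 without replicate 4 at 0 mg/kg and -0.18 with no run term, and the trend with no run term was -0.11.

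The enzymes that make palmitate gave these levels. Acly stood at 251 ± 47.0, 214 ± 24.3, 277 ± 54.2 and 219 ± 79.6 CPM at 0, 0.5, 5 and 50 mg/kg, and its log2 fold change at 50 against 5 mg/kg was -0.35 (SE 0.15, edgeR adjusted p = 0.962). Acaca stood at 132 ± 39.8, 100 ± 31, 115 ± 27.9 and 120 ± 29.4 CPM. The groups of either gene overlapped. Fasn was at 558, 547, 600, 661 and 426 CPM in the 5 controls and at 347, 307, 379, 225 and 317 CPM in the 5 mice at 0.5 mg/kg. It ran from 293 to 1082 (median 654) at 5 mg/kg and from 214 to 2013 (median 395) at 50 mg/kg. All 5 mice at 0.5 mg/kg thus lay below all controls, whereas the higher doses overlapped the controls on both sides. The log2 fold change of Fasn at 0.5 mg/kg was -0.69 (SE 0.41, edgeR adjusted p = 0.777). Fasn and Lpin1 were the 2 members (6.45%) whose mice at 0.5 mg/kg all lay apart from the controls, where 1.4% of all genes did.

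**Figure D2:**
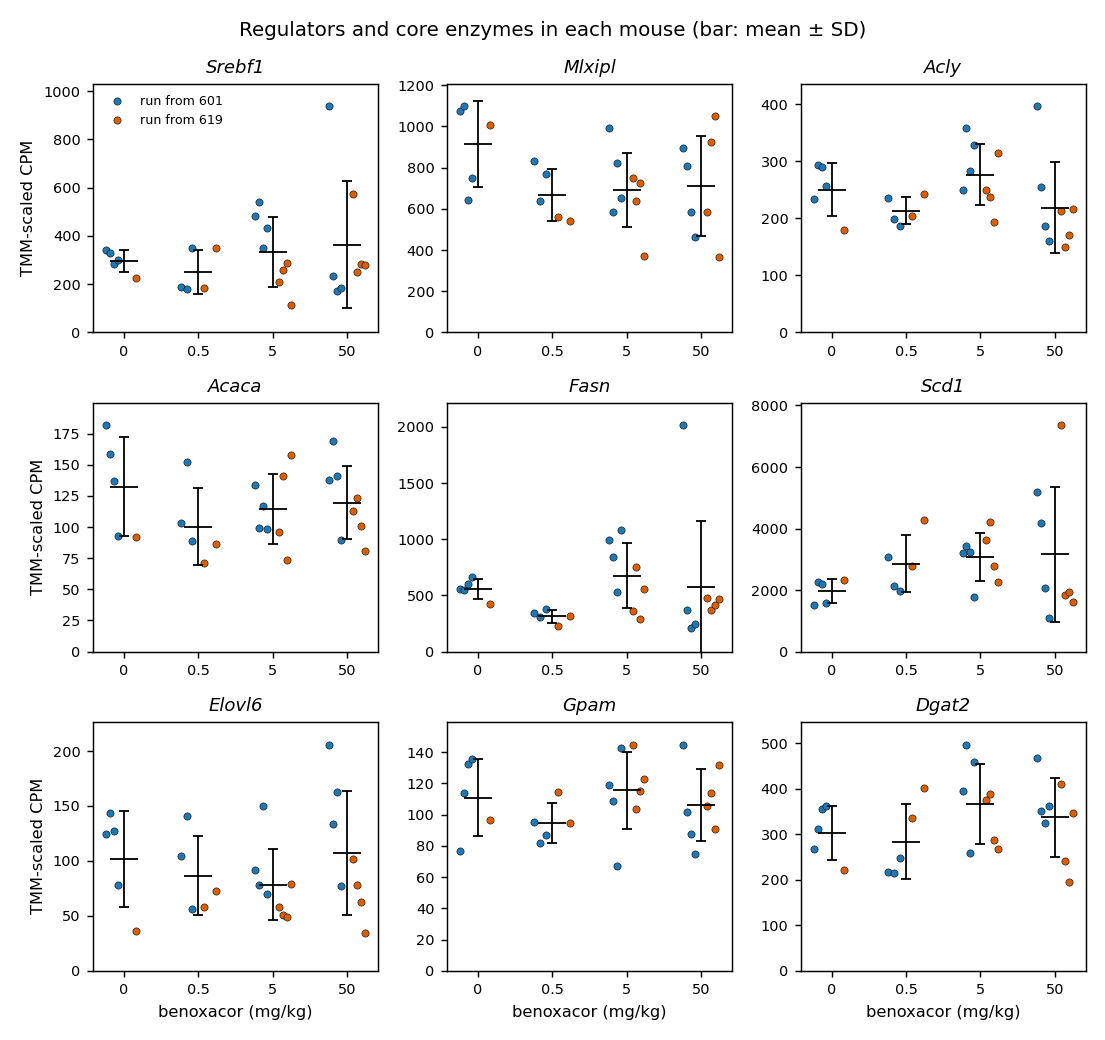
TMM-scaled CPM (vertical axes, from 0) of the 2 regulators and 7 core enzymes in each mouse against the dose of benoxacor, with points coloured by the run of mouse numbers and black bars for the mean ± SD of each dose. The 4 doses overlap in every panel except that Fasn at 0.5 mg/kg (225 to 379 CPM) lies below all 5 controls (426 to 661 CPM).

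Of the genes that feed the chain, Acss2, which makes acetyl-CoA from acetate, was at 80.9, 113, 115, 119 and 104 CPM in the controls. In the mice at 5 mg/kg it ran from 120 to 158 CPM (median 138), so all 8 mice lay just above all controls. Acss2 was the 1 member (3.23%) with no overlap there, where 0.222% of all genes had none, and at 50 mg/kg 0 members and 0.166% of all genes had none. At 0.5 and 50 mg/kg the ranges, 106 to 169 and 87.5 to 206 CPM, overlapped the controls. Its log2 fold change was 0.38 at 5 mg/kg (SE 0.17, edgeR adjusted p = 0.780), 0.27 at 50 mg/kg (SE 0.17, adjusted p = 0.986; 0.18 without replicate 5) and 0.30 over all doses (SE 0.15, adjusted p = 0.724). The long-chain acyl-CoA synthetase gene Acsl5 was at 177 to 255 CPM (median 239) in the controls and was above every control in 4 of 5, 6 of 8 and 6 of 8 mice at the rising doses. Its log2 fold changes were 0.42 at 0.5 mg/kg (SE 0.20, edgeR adjusted p = 0.690), 0.34 at 5 mg/kg (SE 0.18, adjusted p = 0.780) and 0.33 over all doses (SE 0.16, adjusted p = 0.724). The related Acsl3 gave 0.43 at 0.5 mg/kg (SE 0.21, edgeR adjusted p = 0.720), with 26.9 ± 5.09 CPM in the controls and 35.9 ± 4.70 CPM at that dose. In the run from 619 alone, with its 1 control, Acsl3 at 0.5 mg/kg was 0.73, and Acsl5 was 0.82, against 0.17 in the run from 601. Genes that supply citrate, NADPH or pentose for the chain lay close to 0 at 50 against 0 mg/kg. The log2 fold change was -0.01 for the citrate carrier gene Slc25a1 (SE 0.22), 0.05 for Me1, the malic enzyme that makes NADPH (SE 0.23), and -0.06 for the transketolase gene Tkt (SE 0.22).

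Of the genes that shape the chain, Scd1 was at 1507, 2250, 2193, 1566 and 2324 CPM in the controls. It ran from 1981 to 4282 CPM at 0.5 mg/kg (median 2798), from 1779 to 4214 at 5 mg/kg (median 3211) and from 1087 to 7353 at 50 mg/kg (median 1996). Of the 21 dosed mice 12 lay above every control and 1 below, and the ranges overlapped at each dose. The log2 fold change at 50 against 0 mg/kg was 0.63 (SE 0.35, edgeR adjusted p = 0.984), and the trend was 0.18 per step (SE 0.11, adjusted p = 1.0). At 50 against 0 mg/kg Scd1 was 0.41 without replicate 1 at 50 mg/kg, 0.38 without replicate 5 and 0.37 by limma-voom. The trend was 0.12 without replicate 1, 0.11 without replicate 5, 0.10 by limma-voom and 0.05 in the run from 619 alone. Elovl6, which extends palmitate to stearate, stood at 102 ± 44.0, 86.3 ± 35.9, 78.3 ± 32.4 and 107 ± 56.8 CPM at the rising doses, with overlap of all groups. The elongases and desaturases of longer or polyunsaturated chains differed little at 50 against 0 mg/kg, with log2 fold changes of -0.09 for Elovl1 (SE 0.15), 0.15 for Elovl2 (SE 0.16), -0.06 for Elovl5 (SE 0.19), 0.15 for Fads1 (SE 0.20) and 0.01 for Fads2 (SE 0.23).

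Among the acyltransferase genes Gpam and Dgat2 overlapped the controls at each dose. Gpam, the mitochondrial enzyme that starts glycerolipid synthesis, stood at 111 ± 24.8, 94.6 ± 12.6, 115 ± 24.4 and 106 ± 23.3 CPM. Dgat2 stood at 303 ± 59.4, 283 ± 82.3, 366 ± 87.8 and 337 ± 87.0 CPM. Agpat2, which adds the second acyl chain, was above every control in 7 of 8 mice at 5 mg/kg and below every control in the remaining mouse. In the other dosed groups it was above every control in 3 of 5 mice at 0.5 mg/kg and 3 of 8 at 50 mg/kg. Its log2 fold change at 5 mg/kg was 0.34 (SE 0.17, edgeR adjusted p = 0.780). In the run from 619 alone, which has 1 control, it was 0.69. Over both runs without that control, replicate 5 at 0 mg/kg, it was 0.23. Replicates 6 and 8 at 5 mg/kg, which carried adipocyte transcripts, are of the run from 619.

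Lpin1 had the smallest p of the members at 50 and 0.5 against 0 mg/kg and over all doses. It encodes the phosphatidate phosphatase that makes diacylglycerol and also acts as a transcriptional coactivator (chr12:16535669-16610966 on mm10, minus strand). The controls were at 99.4, 73.0, 68.9, 86.6 and 96.5 CPM, and the mice at 0.5 mg/kg at 40.2, 36.1, 35.5, 63.4 and 60.5 CPM. Lpin1 at 5 mg/kg ran from 39.2 to 110 CPM (median 50.7) and at 50 mg/kg from 25.9 to 77 CPM (median 48.8). Values under those of all controls were found in 5 of 5 mice at 0.5 mg/kg, 6 of 8 at 5 mg/kg and 7 of 8 at 50 mg/kg, while 1 mouse at 5 mg/kg exceeded the highest control.

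The Lpin1 difference did not pass the adjustment over all genes. Its log2 fold change against 0 mg/kg was -0.85 at 0.5 mg/kg (SE 0.29, edgeR adjusted p = 0.502), -0.52 at 5 mg/kg (SE 0.25, adjusted p = 0.780) and -0.80 at 50 mg/kg (SE 0.25, adjusted p = 0.769). Over all doses it was -0.72 (SE 0.22, edgeR adjusted p = 0.585), and the trend was -0.20 per step (SE 0.08, adjusted p = 1.0). Within the run from 601 the value at 50 mg/kg was -0.79 and within the run from 619, which has 1 control, -0.93. At 5 mg/kg the runs gave -0.23 and -0.99, and at 0.5 mg/kg -1.17 and -0.61. Without both 5 mg/kg mice that carried adipocyte transcripts, the 5 mg/kg value was -0.37. No dose comparison called Lpin1 under any alternative run, and the lowest adjusted p reached was 0.0839, at 0.5 mg/kg in the run from 601 alone. The clock gene Nr1d1, which encodes the repressor REV-ERB alpha, had a log2 fold change of -1.12 over all doses (SE 0.39, edgeR adjusted p = 0.662), and its part in the Lpin1 values was not tested.

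The 50 against 5 mg/kg comparison, in which both groups have 4 mice of each run, held 5 members with an unadjusted p under 0.05. Dgat1, the other enzyme of the last acylation, was at 21.1 to 35.6 CPM (median 24.4) at 5 mg/kg and at 15.3 to 23.9 CPM (median 20.4) at 50 mg/kg. These ranges overlapped, with a log2 fold change of -0.37 (SE 0.12, edgeR adjusted p = 0.962). The 2 highest Dgat1 values, 35.6 and 34.7 CPM, were those of replicates 6 and 8 at 5 mg/kg, and without these mice the log2 fold change was -0.21. Scd2, a desaturase of adipose and brain, and Pnpla3 rested on the same mice. Scd2 was at 14.8 and 131 CPM in them and at 2.73 to 8.78 CPM in the other 24 mice. Pnpla3 was at 10.9 and 10.4 CPM in them and at 0 to 2.70 CPM in the others. Acly, given above, and Acsl3 (log2 fold change 0.37, SE 0.17, edgeR adjusted p = 0.962) were the remaining members. Without replicates 6 and 8 at 5 mg/kg, 1 of 31 members had an unadjusted p under 0.05, where 477 of 14293 genes had one.

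The Scd2 and Pnpla3 differences depended on those livers. For Scd2 the log2 fold change of -1.61 (SE 0.65, edgeR adjusted p = 0.962) became -0.19 without replicate 8 and 0.18 without both. For Pnpla3 the log2 fold change of -1.69 (SE 0.69, edgeR adjusted p = 0.962) became -1.32 without replicate 8 and -0.04 without both. Of the 7 adipocyte markers, 6 (Adipoq, Plin1, Lep, Cfd, Retn and Cidea) were higher in both of these livers than in any other, while Car3, which the liver also expresses, was within the range of the others. Because of Car3 the summed level of the list ran from 1456 to 3478 CPM at 5 mg/kg and from 1502 to 2351 CPM at 50 mg/kg. In bulk tissue the number of cells of a type and the RNA in each of them cannot be told apart.

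The runs of mouse numbers were compared next. Insig2 and Elovl5 had higher levels in the run from 619 and Elovl6, Thrsp and Pklr lower levels, none of which passed the main threshold. In the run from 619 against the run from 601, 8 of the 31 members (25.8%) had an unadjusted p under 0.05, where 7.98% of all genes had one. Of these 3 were higher (4.16% of all genes) and 5 lower (3.83%). At an adjusted p of 0.05, 0 members and 0.0902% of all genes passed in edgeR. The 2 closest, Insig2 and Elovl6, each had an adjusted p of 0.0506, and the call depended on the test. By limma-voom 0 members and 6 of 14415 genes were called. DESeq2's Wald test called 5 members (Insig2, Elovl5, Elovl6, Thrsp and Pklr) and 108 of 14415 genes. The median of all 31 members was 0.03, beside 0.02 for all genes, so the members lay on both sides.

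Insig2 (chr1:121304353-121332589 on mm10, minus strand) was at 76.5 to 229 CPM (median 153) in the 15 mice from 601 and at 118 to 340 CPM (median 234) in the 11 mice from 619. These ranges overlapped. The log2 difference was 0.76 (SE 0.16, edgeR adjusted p = 0.0506), a 1.69-fold higher level. Elovl5 (chr9:77917364-77984519, plus strand), which extends polyunsaturated chains, also overlapped, at 111 to 228 CPM (median 160) and 124 to 328 CPM (median 263). Its log2 difference was 0.61 (SE 0.13, edgeR adjusted p = 0.0631).

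Elovl6 (chr3:129532355-129638495, plus strand) went the other way, from 55.8 to 206 CPM (median 124) in the run from 601 to 34.8 to 102 CPM (median 58.2) in the run from 619. Its log2 difference was -0.92 (SE 0.19, edgeR adjusted p = 0.0506), and the adjusted p was 0.0345 without replicate 8 at 5 mg/kg. Without both replicates 6 and 8 at 5 mg/kg, 0 members passed between the runs, the smallest edgeR adjusted p being 0.0696. Thrsp (chr7:97412938-97417730, minus strand) was at 188 to 944 CPM (median 459) and 141 to 674 CPM (median 211), a log2 difference of -1.03 (SE 0.27, edgeR adjusted p = 0.130). The runs overlapped for Elovl6 and Thrsp too.

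**Figure D3:**
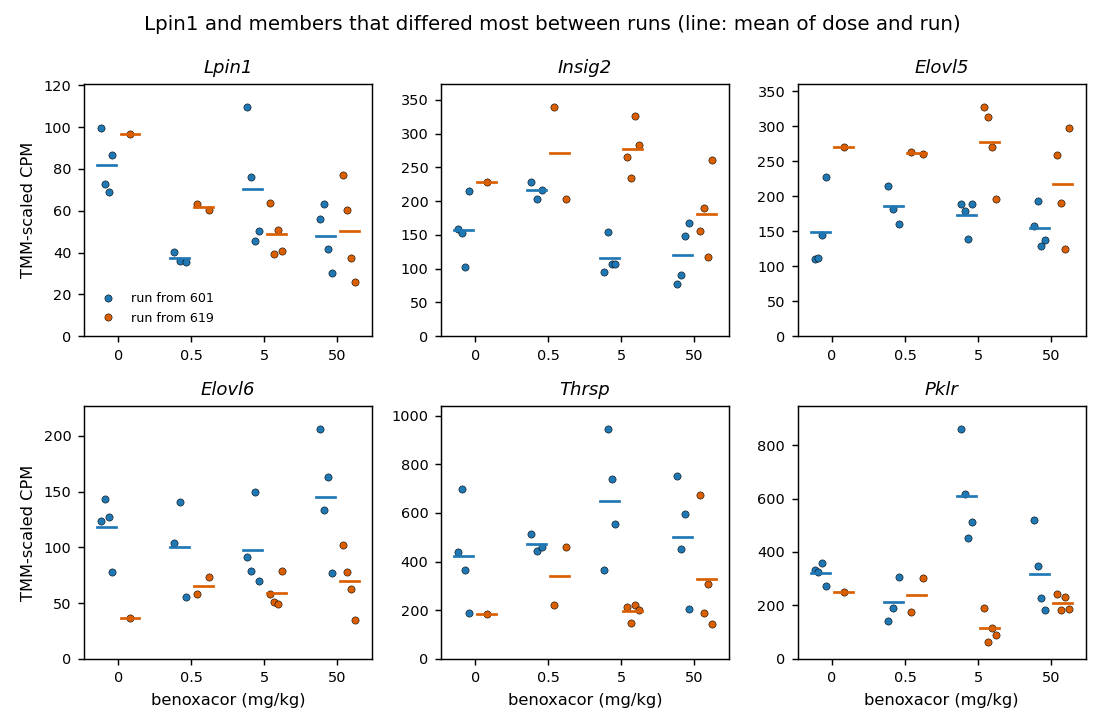
TMM-scaled CPM (vertical axes, from 0) of Lpin1 and 5 members that differed between the runs in each mouse against the dose, with the run from 601 in blue and the run from 619 in orange and lines for the mean of each dose and run. At 5 mg/kg the Pklr, Thrsp, Insig2 and Elovl5 points of the runs do not overlap, and at 50 mg/kg they do.

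The higher doses have 4 mice of each run. At 5 mg/kg the runs did not overlap for 7 of the 31 members (22.6%), where 5.85% of all genes tested did not overlap. Pklr, the liver pyruvate kinase that ChREBP is known to induce, was at 860, 615, 453 and 511 CPM in the mice from 601 and at 192, 64.1, 116 and 89.3 CPM in those from 619. Thrsp was at 365 to 944 CPM against 147 to 220 CPM, and Srebf1 at 348 to 542 against 113 to 286 CPM. Mid1ip1, a partner that promotes polymerisation of acetyl-CoA carboxylase, was at 81.8 to 153 against 36.3 to 60.0 CPM, and Aacs at 101 to 208 against 17.1 to 62.6 CPM. Insig2 was the reverse, at 95.5 to 154 CPM for the numbers from 601 and 234 to 326 CPM for those from 619. Elovl5 was too, at 138 to 189 and 196 to 328 CPM. Replicates 6 and 8, which carried adipocyte transcripts, are among these mice from 619, and replicate 8 had the lowest Srebf1 value, 113 CPM. Ranges that lie apart stay apart with these replicates left out, but the share of all genes was not computed without them. In the smaller groups at 0.5 mg/kg, 3 against 2 mice, 14 members (45.2%) did not overlap, and 49% of all genes did not either, so the members were near the background there.

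At 50 mg/kg the runs overlapped for all 31 members, where 1.64% of all genes did not overlap. Pklr, for example, was at 520, 348, 227 and 181 CPM in the mice from 601 and at 242, 183, 230 and 186 CPM in those from 619. A test of the difference between the doses in this respect, an interaction fitted on the 16 mice at these doses and 13418 genes, called 0 of 30 members and 0% of all genes. Pnpla3 was not tested there. Unadjusted, 4 members had a p under 0.05, where 4.89% of all genes had one: Pklr (log2 interaction 1.77, SE 0.46), Aacs (2.20, SE 0.81), Scd2 (-3.13, SE 1.30) and Mid1ip1 (1.20, SE 0.52, or 1.87 without replicate 1 at 50 mg/kg), each with an edgeR adjusted p of 0.982. Without replicates 6 and 8 at 5 mg/kg the Scd2 value was -0.03 and the Pklr value 1.37. In that fit 1 of 30 members had an unadjusted p under 0.05, where 366 of 13555 genes had one.

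Clock genes differed between the runs beside these members. Of 16 listed, Npas2 and Arntl, whose products bind each other as a pair of activators, were higher in the run from 619 (edgeR adjusted p = 0.00987 and 0.0490). Arntl was at 3.98 to 18.4 CPM (median 6.84) in the mice from 601 and at 3.05 to 26.1 CPM (median 19.4) in those from 619. Its log2 difference was 1.30 (SE 0.26). Npas2 was at 0 to 1.61 CPM (median 0.148) and 0.139 to 5.71 CPM (median 3.51), a log2 difference of 3.46 (SE 0.56). Of 16 genes of fasting and feeding, 0 passed in edgeR, with Ppp1r3c nearest (0.70, SE 0.21, adjusted p = 0.215). The part of these genes in the member differences was not tested.

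Other genes of the pathway, 56 from a list made for this comparison of which 49 were tested, were set beside the members, and 0 passed in edgeR in any of the dose or run comparisons. Unadjusted, 1 of the 49 had a p under 0.05 at 50 against 0 mg/kg, higher, where 5.11% of all genes had one. Between the runs 7 did, 6 higher and 1 lower, where 7.98% of all genes did. At 50 against 5 mg/kg 5 were lower and 0 higher (4.85% of all genes in either direction). In the interaction 1 was higher and 7 lower (4.89%). This list was not compared without replicates 6 and 8 at 5 mg/kg. Between the runs the smallest p was that of Elovl3, an elongase of saturated chains, at 12.4 to 257 CPM (median 48.5) and 25.7 to 388 CPM (median 260). The ranges overlapped, with a log2 difference of 1.85 (SE 0.50, edgeR adjusted p = 0.166). At 50 against 0 mg/kg the smallest p was that of Fitm2, which encodes a protein of lipid droplet formation, at 0.33 (SE 0.15, edgeR adjusted p = 0.961).

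The next question was how the members varied together across the 26 mice, whatever the dose. Pearson's r and Spearman's rho were computed on log2(CPM + 1) for 59 relations of the members with Srebf1 and Mlxipl, with permutation p-values adjusted over the 59, and 15 passed 0.05 by both measures. Libraries share the scaling to their total, so the relations are between shares of the counts. They were not computed for genes outside the set, so the share of all genes that would pass is not known.

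Srebf1 went with 6 members positively. Mid1ip1 followed it most closely, with r = 0.86 (permutation p = 1e-05, the smallest the resampling gives, adjusted 0.00059) and rho = 0.88 (permutation p = 1e-05, adjusted 0.000197), and with r = 0.90 and 0.74 within the runs from 601 and 619. Without the 2 mice farthest from the median of Srebf1, replicate 8 at 5 mg/kg and replicate 1 at 50 mg/kg, r was 0.83. Aacs (r = 0.70), Pklr (0.69), Thrsp (0.54) and Dgat2 (0.53) also passed, with rho of 0.72, 0.72, 0.51 and 0.52 and permutation p-values adjusted to at most 0.0209 for r and 0.0348 for rho. Their r without those 2 mice was 0.68, 0.61, 0.45 and 0.45. Within the runs from 601 and 619 the r values were 0.74 and 0.55 for Aacs, 0.83 and 0.47 for Pklr, 0.42 and 0.64 for Thrsp and 0.62 and 0.35 for Dgat2.

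Fasn, a textbook target of SREBP-1c, had r = 0.71 with Srebf1 (permutation p = 4e-05, adjusted 0.000885) and rho = 0.64 (permutation p = 0.00083, adjusted 0.00445), and r = 0.73 without the 2 farthest mice. The relation held in the run from 601, with r = 0.94 over 15 mice, and did not in the run from 619, where r was 0.00 over 11 mice (permutation p = 0.997). In the run from 619 the lowest Srebf1 value, 113 CPM in replicate 8 at 5 mg/kg, went with 556 CPM of Fasn, above the run's median of 418 CPM. That library carried transcripts of other tissues, and over the 25 mice without it r was 0.82. Within the run from 619, r without it was not computed. The run from 601 includes replicate 1 at 50 mg/kg, which had the highest Srebf1 level of all mice and 2013 CPM of Fasn. The next Fasn value at that dose was 477 CPM. Within the run from 601, r without this mouse was not computed either.

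Insig2 was the only member with a negative relation to Srebf1 that passed, with r = -0.57 (permutation p = 0.00215, adjusted 0.0115) and rho = -0.49 (permutation p = 0.0115, adjusted 0.0454). It was -0.55 within either run and -0.40 without the 2 farthest mice. Without replicate 8 at 5 mg/kg, r was -0.53 and the adjusted p of rho 0.0770, so the call was lost, while Acly (r = 0.64) passed. The Srebf1 relations that passed numbered 6 positive and 1 negative over all mice, 7 and 0 without that mouse, and 5 and 0 after the mean of each dose and run was removed, where Dgat2 (adjusted permutation p of rho 0.0858) and Insig2 (0.0860) no longer passed.

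Mlxipl varied against most of the members with which it was related. It went with Acacb, the mitochondrial carboxylase that makes the malonyl-CoA limiting fatty acid oxidation, at r = 0.62 (permutation p = 0.00082, adjusted 0.00484) and rho = 0.59 (permutation p = 0.00188, adjusted 0.00924). This r was 0.84 within the run from 601 and 0.36 within the run from 619, and 0.62 without the farthest pair, replicates 8 at 5 and 50 mg/kg. It went against 7 members: Acsl5 (r = -0.75), the delta-5 and delta-6 desaturases Fads1 (-0.71) and Fads2 (-0.62), Agpat2 (-0.67), Tkt (-0.64), Elovl2 (-0.55) and Slc25a1 (-0.55). Their rho values ran from -0.85 for Acsl5 to -0.64 for Fads2, with permutation p-values adjusted to at most 0.0164 for r and 0.00342 for rho.

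These negative relations had the same sign in both runs. For Acsl5 r was -0.79 within the run from 601 and -0.69 within the run from 619, for Fads1 -0.58 and -0.76, for Agpat2 -0.52 and -0.74, for Fads2 -0.51 and -0.74, for Tkt -0.38 and -0.79, for Elovl2 -0.72 and -0.38, and for Slc25a1 -0.43 and -0.61. Without the 2 farthest mice r was -0.77 for Acsl5, -0.75 for Fads1, -0.67 for Agpat2, -0.69 for Fads2, -0.58 for Tkt, -0.79 for Elovl2 and -0.66 for Slc25a1. The numbers that passed, 1 positive and 7 negative, were the same without replicate 8 at 5 mg/kg and after removal of dose and run means. Pklr, the ChREBP target named above, had r = 0.38 with Mlxipl and did not pass.

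**Figure D4:**
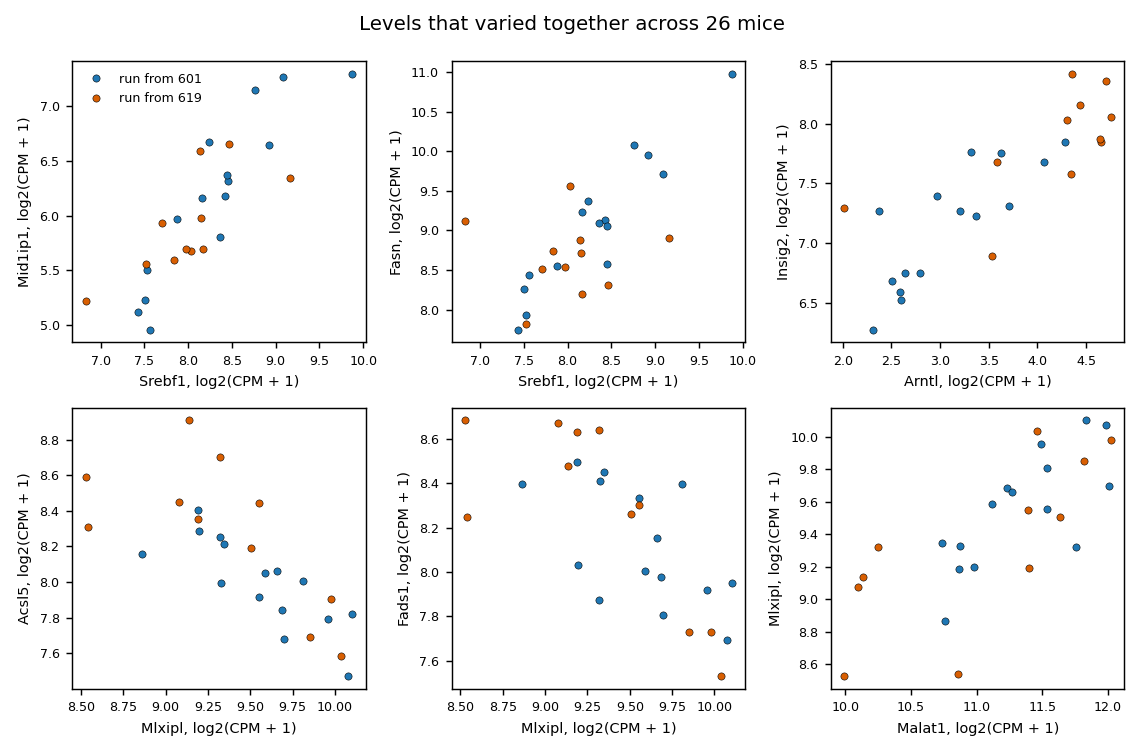
Levels in 26 mice on a log2(CPM + 1) scale, 1 point per mouse and coloured by the run of mouse numbers, for Mid1ip1 and Fasn against Srebf1, Insig2 against Arntl, Acsl5 and Fads1 against Mlxipl, and Mlxipl against Malat1. Mid1ip1 goes with Srebf1 in both runs (r = 0.86 over all mice). Fasn does so in the run from 601 (r = 0.94), which includes replicate 1 at 50 mg/kg with the highest values of both genes. It does not in the run from 619 (r = 0.00), which includes replicate 8 at 5 mg/kg. Without that mouse r of Fasn with Srebf1 over all other mice was 0.82. Acsl5 is lower where Mlxipl is higher (r = -0.75).

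The relations also followed measures outside the pathway. A further 93 relations, of the 31 members with Arntl, with the nuclear non-coding RNA Malat1 and with the total counts of the library, were computed after the data were seen, and 24 passed 0.05 after adjustment over the 93. The share of all genes that would pass was not computed here either. Insig2 followed Arntl, with r = 0.83 (permutation p = 1e-05, adjusted 0.000266), rho = 0.86 (permutation p = 1e-05, adjusted 0.000233), 0.86 without the 2 farthest mice, and 0.83 and 0.67 within the runs. Elovl5 also passed with a positive sign (r = 0.51, permutation p = 0.00916, adjusted 0.0387), but at 0.10 and 0.26 within the runs it did not hold there, and it was 0.08 after the mean of each dose and run was removed. Pklr (r = -0.76), Thrsp (-0.73), Srebf1 (-0.65), Elovl6 (-0.59), Mid1ip1 (-0.58) and Aacs (-0.54) went against Arntl, with permutation p-values adjusted to at most 0.0220. Within the runs from 601 and 619 these were -0.78 and -0.48 for Pklr, -0.28 and -0.88 for Thrsp, -0.63 and -0.72 for Srebf1, -0.08 and -0.64 for Elovl6, -0.67 and -0.54 for Mid1ip1, and -0.57 and -0.45 for Aacs. Without the 2 mice farthest from the median of Arntl, replicates 1 and 5 at 50 mg/kg, these r values lay between -0.80 for Pklr and -0.50 for Aacs. After the means of dose and run were removed the call of Elovl6 was lost (r = -0.24, adjusted permutation p = 0.403).

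The members tied to Mlxipl were tied to Malat1 as well. Malat1, a transcript retained in the nucleus, ran from 1019 to 4163 CPM (median 2578). It went with Mlxipl (r = 0.75, permutation p = 2e-05, adjusted 0.000266; rho = 0.79, permutation p = 2e-05, adjusted 0.00031), at 0.75 and 0.73 within the runs, and with Acacb (r = 0.57), and against Acsl5 (-0.78), Fads1 (-0.76), Tkt (-0.74), Agpat2 (-0.70), Slc25a1 (-0.68), Elovl2 (-0.68), Fads2 (-0.58) and Dgat2 (-0.49). Total counts went against Mlxipl (r = -0.56) and with Acsl5 (r = 0.77), Fads1 (0.56), Agpat2 (0.55), Slc25a1 (0.52) and Tkt (0.50). Within the run from 601 those with total counts were weaker, from 0.08 for Tkt to 0.51 for Acsl5, than within the run from 619, from 0.72 for Slc25a1 to 0.88 for Acsl5. After removal of dose and run means the calls with total counts fell from 5 to 3 positive ones, those of Agpat2 and Slc25a1 being lost (adjusted permutation p of rho 0.0909 for either). That of Tkt was lost without replicate 8 at 5 mg/kg (adjusted permutation p of r 0.0551). Adjusted permutation p-values were at most 0.0450 for r and 0.0407 for rho. The part of library depth or of nuclear RNA in the Mlxipl relations was not tested.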

How the data were processed

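Gene counts were deposited by the authors as raw counts of reads per gene for each of 26 livers. The submitters' processing notes name featureCounts, bcl2fastq and mm10 as the build, without versions. The aligner, annotation and strand setting are not given in the sources used here, so overlapping or antisense genes cannot be told apart. All 26 single-mouse files equalled the combined table. Coordinates and exonic lengths are from GENCODE M21 (mm10).

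Counts were filtered with filterByExpr, which kept 14415 genes holding 99.7% of the counts and all 31 members, and scaled by TMM. edgeR 4.0.16 (R 4.3.3) quasi-likelihood tests with robust spread used terms for dose and run over all 26 mice, with Benjamini-Hochberg adjustment over all genes tested and a threshold of 0.05. The test was tested on simulated data. Intervals are at 95%. Alternatives used DESeq2 1.42.0, limma 3.58.1 voom, other filters, each run alone, no run term and each mouse left out.

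Members and lists were chosen with earlier results of these data known. The rule for named genes was to give dose levels for the regulators and core enzymes, the 4 members of smallest p in each comparison where none passed, and up to 4 genes of each context list. The added relations with Arntl, Malat1 and total counts, and the genes Pklr and Fasn where described by their overlap, were chosen after their values were seen. Within each dose all 76 pairs of libraries differed by more than sampling noise.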

Additional observations from a re-analysis of the deposited data

Results flagged for a closer look

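In 8 of 124 groups of a member and a dose, 1 mouse lay further from its nearest neighbour than Dixon's 95% criterion allows, where chance gives about 1 group in 20, or 6.2 groups. At 0.5 mg/kg, Acacb was high in replicate 1 (170.8 CPM), and replicate 4 was high in Insig2 (340.1 CPM) and low in Thrsp (221 CPM). At 5 mg/kg, Scd2 was high in replicate 8 (131 CPM), Elovl6 was high in replicate 3 (149.7 CPM) and Agpat2 was low in replicate 1 (93.49 CPM). At 50 mg/kg, replicate 1 was high in Fasn (2013 CPM) and in Acly (396.7 CPM). The same mouse had the highest Srebf1 (937 CPM), Mid1ip1 (156 CPM) and Elovl6 (206 CPM) of all 26 mice and the lowest Insig2 (76.5 CPM), and its members took 1.5% of its counts, the highest share of the 26.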

How the results depend on the processing

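The count of members called was 0 in all 6 dose comparisons and in the interaction under every alternative run, each mouse left out included. Between the runs edgeR called 0 members and 13 of 14415 genes. With no filter on low counts it called 2 members, beside 19 of 31932 genes. DESeq2's Wald test called 5 members, beside 108 of 14415 genes. With 1 mouse left out 0 to 3 members were called, and 0 without both replicates 6 and 8 at 5 mg/kg. Leaving out replicate 4 at 0 mg/kg, or 5 or 7 at 50 mg/kg, gave 3, beside 60 of 14616, 56 of 14401 and 60 of 14373 genes. Replicate 5 at 0.5 mg/kg or 4 at 50 mg/kg gave 2, beside 31 of 14623 and 29 of 14399 genes. Replicate 3 at 0.5 mg/kg, 8 at 5 mg/kg or 2 at 50 mg/kg gave 1, beside 11 of 14607, 14 of 14345 and 17 of 14395 genes. The cause was not tested. The median member log2 fold change of 0.02 at 0.5 against 0 mg/kg was -0.24 in the run from 601 alone, 0.42 in the run from 619 alone, which has 1 control, and 0.21 without replicates 1 and 2 at 0.5 mg/kg. Over all doses it moved from 0.12 to 0.44 in the run from 619 alone and to -0.01 in the run from 601 alone, and it was 0.03 without replicate 5 at 0 mg/kg. At 50 against 0 mg/kg it moved from 0.04 to 0.23 in the run from 619 alone. Scd2 at 50 against 5 mg/kg reversed to 0.21 in the run from 601 alone and to 0.18 without replicates 6 and 8 at 5 mg/kg, which hold its highest values. No paired analysis was possible because each liver came from a different mouse and the labels pair no mice. The labels do not say what the runs are, and the 1 control of the run from 619 limits comparisons within it. Pnpla3 had a median of 7.5 reads and Scd2 of 38.5, which limits their precision.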
